A study of Mus musculus with 15 samples.

Results

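The 31 genes described here encode subunits of heterotrimeric G proteins: 15 α, 5 β and 11 γ subunits. They were taken by symbol from a table of read counts for 23337 genes, in which all 31 were found, and 22 of them had enough counts to enter the test, as did 11814 genes of the whole table. The RNA came from cardiomyocytes purified by FACS (sorting of single cells by fluorescence) from hearts of 4-week-old mice, in 15 libraries. All 3 groups were Rosa-Cas9GFP mice, so that the controls carried the Cas9 and GFP allele too, and all were injected on postnatal day 1 with an adeno-associated virus (AAV). The vector was AAV-ATF4-2A-GFP in the first group, AAV-DDIT3-2A-GFP in the second and AAV-GFP in the control group, with 5 libraries each. ATF4 and DDIT3 (also called CHOP) are transcription factors of the cellular stress response. The promoter that drives the vectors, and whether libraries came from separate animals, are not given in the sources used here, and a p-value here reflects the spread among libraries, which may be technical.

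A heterotrimeric G protein couples a receptor in the cell membrane to enzymes and ion channels inside the cell. When a receptor is activated, the α subunit exchanges GDP for GTP and separates from the paired β and γ subunits, and both parts then act on their effectors until the α subunit hydrolyses GTP. In the heart, Gs passes on the adrenergic signal that strengthens and speeds the beat, Gi carries the opposing muscarinic signal, and Gq carries that of angiotensin, endothelin and α1-adrenergic receptors.

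The libraries held 6217744 to 7514376 counts with ATF4, 7268663 to 8317249 with DDIT3 and 6680988 to 7963333 with GFP, and the 31 genes together took 0.199% to 0.257% of a library. The vector genes followed the labels. Atf4 averaged 400 ± 79.5 normalised counts (CPM, scaled to library size) in ATF4 libraries and 71.1 ± 12.2 CPM in GFP libraries, and Ddit3 averaged 844 ± 180 CPM in DDIT3 libraries and 15.6 ± 1.28 CPM in GFP libraries (SD, n = 5 each). Markers of the sorted cell type were abundant: 10 cardiomyocyte genes summed to 93804 to 105461 CPM with ATF4, 116540 to 127808 CPM with DDIT3 and 111715 to 141885 CPM with GFP, and 5 of the 10 fell in ATF4 relative to GFP. The 12 endothelial markers summed to 1073 to 1545 CPM with ATF4, 452 to 762 CPM with DDIT3 and 471 to 951 CPM with GFP, and 10 of the 12 rose in ATF4 relative to GFP. Of 9 tested pericyte and smooth muscle markers 5 rose in ATF4 relative to GFP, the sum of all 10 lying at 735 to 1415 CPM with ATF4, 713 to 1424 CPM with DDIT3 and 871 to 1362 CPM with GFP. Of 8 tested fibroblast markers 1 rose (9 summing to 233 to 667 CPM with ATF4, 138 to 382 CPM with DDIT3 and 204 to 480 CPM with GFP), and of 3 tested erythroid and platelet markers 2 rose (8 summing to 8.80 to 17.9 CPM, 2.90 to 6.78 CPM and 1.23 to 19.9 CPM in the same order of groups). None of the markers of these 3 lists was called in DDIT3 relative to GFP. In bulk RNA, a change in the number of cells of a type and a change in RNA per cell cannot be told apart. ATF4 library 2 and DDIT3 library 2 stood apart on the second principal component (11.4% of the variance), at 40.6 and 35.2. By sex-linked genes they were the only female libraries of their groups. GFP libraries 4 and 5, both female too, lay on the other side of that component, at -15.8 and -14.5. The groups were thus not balanced by sex, with 4 male libraries for ATF4, 4 for DDIT3 and 3 for GFP. The description of GFP library 5 names SMART-Seq3 where the other 14 name SMART-Seq2, although all 15 extract protocols name the same kits.

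Levels per unit of gene length were compared in TPM (transcript abundance scaled to gene length and library size). In GFP hearts Gnas, which encodes the α subunit of Gs and stimulates adenylyl cyclase, was the highest member at 486 ± 42.8 TPM (SD, n = 5). Gnai2, an α subunit of Gi, which inhibits adenylyl cyclase, followed at 202 ± 26.8 TPM, and its libraries did not overlap with those of Gnas. Gnb2 at 133 ± 10.1 TPM and Gna12 at 122 ± 12.9 TPM came next and overlapped with each other. Among γ subunits Gng5 was highest at 87.1 ± 7.52 TPM, ahead of Gng11 at 49.4 ± 16.3 TPM. Gna11 at 64.2 ± 2.88 TPM, Gnb5 at 62.8 ± 5.15 TPM, Gng11 and Gnb1 at 46.5 ± 3.98 TPM formed a run in which each overlapped with the next. Gng12 at 26.9 ± 1.80 TPM stood by itself between Gnb1 and Gna13 (20.5 ± 2.75 TPM). From Gna13 down to Gnaq at 6.71 ± 0.449 TPM, each neighbour overlapped with the next. The lowest of the 22 tested genes were Gnao1 at 3.01 ± 0.730 TPM and Gnal at 2.57 ± 0.276 TPM, which overlapped, and Gng2 at 1.13 ± 0.338 TPM and Gng7 at 0.520 ± 0.188 TPM, which overlapped too.

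**Figure D1:**
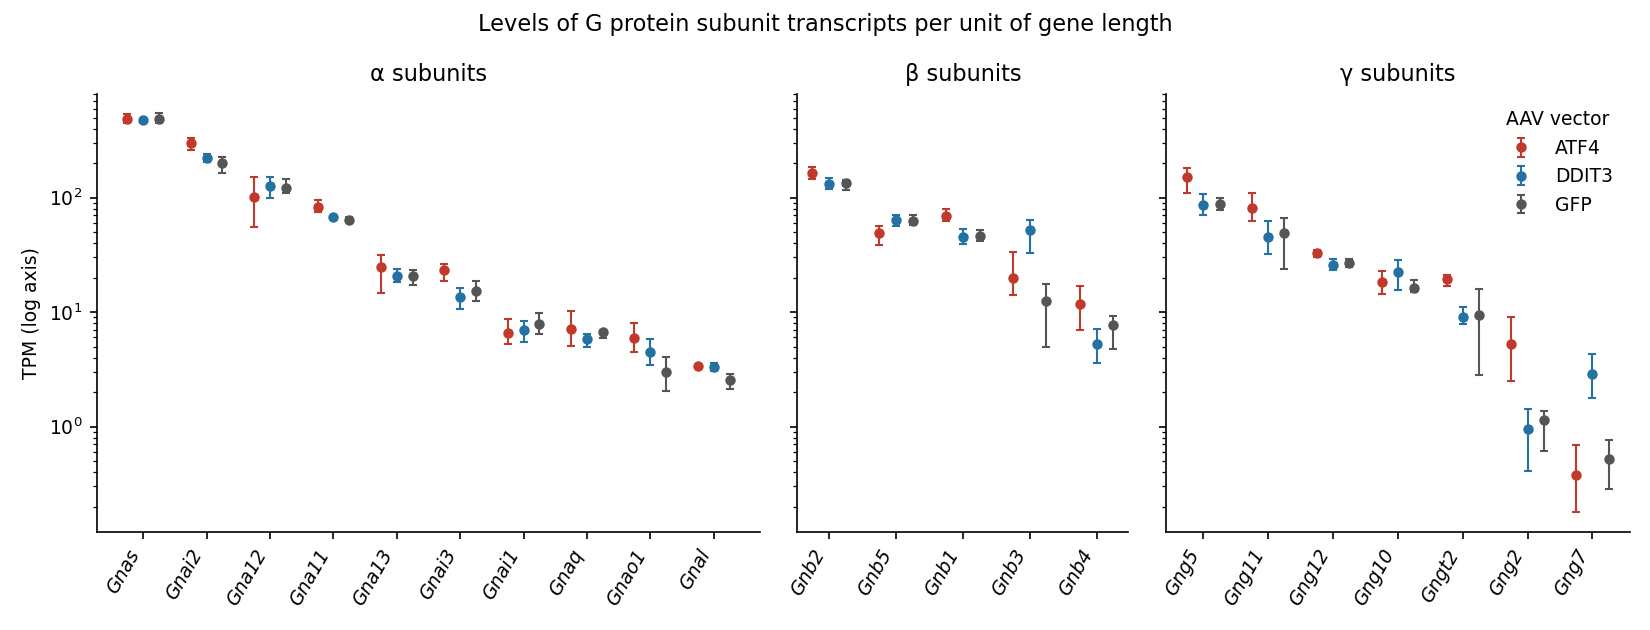
Levels in TPM on a log axis of the tested α, β and γ subunit transcripts in ATF4, DDIT3 and GFP libraries; points are means of 5 libraries and bars run from the lowest to the highest library. Gnas is highest in every group, and Gng2, Gng7 and Gnb3 show the widest separation between groups.

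The other 9 genes, Gna14, Gna15, Gnat1, Gnat2, Gnaz, Gng3, Gng4, Gng8 and Gng13, never reached more than 10 counts in a library and were not tested. They encode subunits best known from other places, such as the rod and cone transducins Gnat1 and Gnat2 of the retina and the Gng13 of taste and olfactory cells. Gnat2 had 7, 10, 5, 5 and 2 counts in ATF4 libraries 1 to 5, 2, 2, 1, 1 and 0 in DDIT3 libraries, and 0, 0, 2, 0 and 1 in GFP libraries. Scaled for depth the groups overlapped: ATF4 library 5, at 0.254 CPM, lay below DDIT3 library 2 (0.277 CPM) and GFP library 3 (0.306 CPM). The ratio of the summed counts, 29 with ATF4 to 3 with GFP, was 9.32 after scaling for depth (95% exact binomial interval 2.89 to 47.8, counting error only). Without the filter on low counts edgeR's quasi-likelihood test gave Gnat2 a log2 fold change of 2.98 ± 0.78 (SE) in ATF4 relative to GFP (adjusted p = 0.00735 over 17593 genes).

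Many α subunit genes lie next to a second α gene. In the GENCODE M21 annotation of mm10, Gna11 and Gna15 lie 4498 bases apart on chromosome 10, Gnai3 and Gnat2 5847 bases apart on chromosome 3, Gnai2 and Gnat1 39106 bases apart on chromosome 9, and Gnaq and Gna14 48298 bases apart on chromosome 19. In each of these 4 pairs 1 gene was tested in these hearts and its neighbour had too few counts. Gnai3 and Gnat2 lie on opposite strands and the other pairs on the same strand.

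ATF4 was then compared with GFP. Across all genes tested 32.2% were called, at an adjusted p below 0.05 in edgeR's quasi-likelihood test with Benjamini-Hochberg adjustment, and 7 of the 22 subunit genes (31.8%) were called, a share near that of all genes. Gnai2, Gnao1, Gnb1, Gng2, Gng5 and Gngt2 rose, 6 of 22 beside 16.5% of all genes, and Gnb5 fell, 1 of 22 beside 15.6%. The median log2 fold change of the 22 was 0.18, beside 0.02 for all genes tested, and the median absolute log2 fold change was 0.40, beside 0.32. The groups did not overlap for 5 of the 22 genes, beside 21.4% of all genes tested: Gna11, Gnao1, Gnb1 and Gng2 were higher and Gnb5 was lower in every ATF4 library than in any GFP library.

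**Figure D2:**
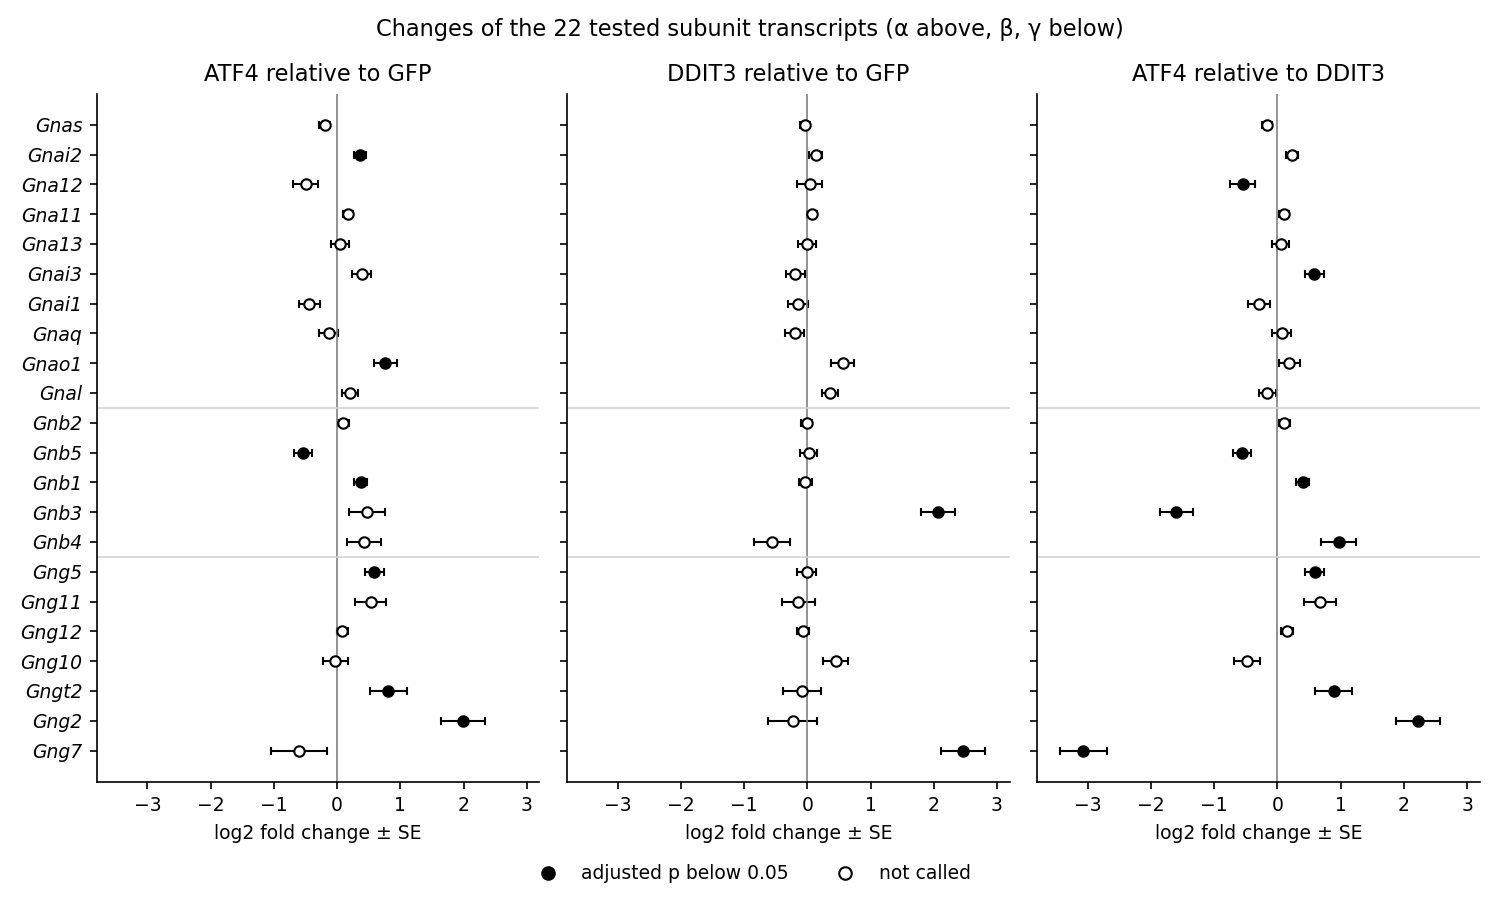
The log2 fold change with its SE for the 22 tested subunit genes in ATF4 relative to GFP (left), DDIT3 relative to GFP (middle) and ATF4 relative to DDIT3 (right), with α subunits at the top and γ subunits at the bottom; filled points passed the adjusted p threshold of 0.05 and open points did not. Filled points number 7 in the left panel, 2 in the middle panel and 10 in the right panel.

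Among α subunits the rises with ATF4 were in the Gi and Go branch. Gnai2 had 288, 244, 293, 258 and 273 CPM in ATF4 libraries 1 to 5, against 224, 247, 201, 212 and 171 CPM in GFP libraries 1 to 5. The groups touched only at GFP library 2, which lay above ATF4 library 2, and the log2 fold change was 0.36 ± 0.10 (adjusted p = 0.00931, edgeR). Gnao1, which encodes the α subunit of Go and is best known from neurons, had 18.5, 23.3, 16.4, 15.8 and 20.6 CPM in ATF4 libraries, against 11.1, 15.5, 11.3, 8.03 and 9.80 CPM in GFP libraries. Every ATF4 library lay above every GFP library, at a log2 fold change of 0.76 ± 0.18 (adjusted p = 0.00319, edgeR). Gnao1 shares 284 exon bases with 4930488L21Rik on the opposite strand, and the kit does not mark strand. Of 5 neuronal markers Snap25, Syt1 and Th were at 0 in all ATF4 libraries, while Tubb3, a neuronal tubulin and the only one of the 5 tested, had 957 counts over the ATF4 libraries (14.1 to 33.0 CPM), 4 over the DDIT3 libraries and 2 over the GFP libraries. The 5 summed to 14.1 to 33.0 CPM with ATF4, 0 to 0.404 CPM with DDIT3 and 0 to 0.158 CPM with GFP, and their part in the rise of Gnao1 was not tested.

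The other Gi members had fold changes in both directions and did not pass the test. Gnai3 averaged 31.1 ± 2.41 CPM with ATF4 and 23.8 ± 4.42 CPM with GFP (SD, n = 5 each), and its adjusted p in edgeR was 0.05001. Without GFP library 2, ATF4 library 3, DDIT3 library 2 or DDIT3 library 5, left out in turn, that adjusted p was 0.0194 to 0.0459. Gnai1 averaged 8.79 ± 1.73 CPM with ATF4 and 11.96 ± 1.63 CPM with GFP, with an adjusted p of 0.05078, which became 0.0185 to 0.0494 without ATF4 library 5, GFP library 4, DDIT3 library 4 or DDIT3 library 5.

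Gnas, the most abundant subunit transcript, had 1299, 1161, 1290, 1215 and 1197 CPM in ATF4 libraries, against 1503, 1562, 1269, 1391 and 1336 CPM in GFP libraries. Only GFP library 3 lay within the ATF4 range, and the log2 fold change of -0.20 ± 0.08 did not pass (adjusted p = 0.0715, edgeR); without GFP library 3 it was -0.24 (adjusted p = 0.0478). In the authors' deposited table Gnas passed at a log2 fold change of -0.22 (adjusted p = 0.0380). Gnas shares 988 exon bases with the antisense gene Nespas.

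The Gq family was close to level. Gna11, whose product activates phospholipase C, had 123, 112, 111, 109 and 110 CPM in ATF4 libraries, against 100, 102, 101, 104 and 95.3 CPM in GFP libraries. The groups did not overlap, but the log2 fold change of 0.17 ± 0.08 did not pass the test (adjusted p = 0.0975, edgeR). Its close relative Gnaq averaged 16.7 ± 3.82 CPM with ATF4 and 18.2 ± 1.61 CPM with GFP (SD, n = 5 each; 95% interval of the log2 fold change -0.45 to 0.20). Outside that family, Gnal had a log2 fold change of 0.20 ± 0.13 (adjusted p = 0.261, edgeR). Gna12 and Gna13 encode α subunits that act on the cytoskeleton, and Gna13 had a log2 fold change of 0.05 ± 0.14. Gna12 had 110, 106, 68.1, 47.3 and 57.5 CPM in ATF4 libraries and 106, 109, 95.7, 112 and 130 CPM in GFP libraries. ATF4 libraries 1 and 2 thus lay among the GFP libraries and the other 3 below all of them, and the adjusted p was 0.0622, or 0.0187 without ATF4 library 1 and 0.0220 without ATF4 library 2 (edgeR).

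Of the 5 β subunits, all tested, 1 rose and 1 fell with ATF4, beside 16.5% and 15.6% of all genes tested. Gnb2, Gnb3 and Gnb4 were not called, at 0.10 ± 0.09, 0.47 ± 0.28 and 0.42 ± 0.27 (adjusted p = 0.451, 0.211 and 0.254, edgeR). Gnb1, a widely used partner of γ subunits, had 99.6, 80.5, 88.8, 89.7 and 95.1 CPM in ATF4 libraries, against 75.4, 72.3, 61.0, 74.5 and 67.3 CPM in GFP libraries. Every ATF4 library was higher, at a log2 fold change of 0.37 ± 0.10 (adjusted p = 0.0101, edgeR). Gnb5 is the β subunit that pairs with regulators of G protein signalling (RGS) of the R7 family in place of a γ subunit. It had 32.2, 28.1, 45.2, 48.5 and 45.3 CPM in ATF4 libraries, against 52.0, 55.4, 53.8, 64.5 and 64.6 CPM in GFP libraries. Every ATF4 library was lower, and Gnb5 fell by 0.54 ± 0.14 on the log2 scale (adjusted p = 0.00704, edgeR).

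The R7 partners of Gnb5 were looked up after its values had been seen. Rgs6 fell by 0.78 ± 0.15 on the log2 scale with ATF4 (adjusted p = 6.52e-04, edgeR), averaging 12.9 ± 1.60 CPM with ATF4 and 22.2 ± 2.90 CPM with GFP (SD, n = 5 each). Rgs7 fell by 0.93 ± 0.31 (adjusted p = 0.0257), averaging 3.61 ± 1.49 CPM with ATF4 and 6.93 ± 2.07 CPM with GFP; its adjusted p was 0.0514 to 0.0659 without ATF4 library 1 or GFP library 3 or 4. Rgs11 did not pass at 0.74 ± 0.46 (adjusted p = 0.236), and Rgs9 had 3 counts over the 5 GFP libraries and was not tested. Rgs7bp, which anchors the complex of R7 proteins and Gnb5 to the membrane, rose by 2.24 ± 0.26 (adjusted p = 3.52e-06), with 24.9 ± 4.13 CPM in ATF4 libraries and 5.21 ± 1.23 CPM in GFP libraries.

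Among γ subunits, 3 of the 7 tested were called higher with ATF4 and none lower, beside 16.5% and 15.6% of all genes tested, and the call of Gngt2 was lost under 12 of 22 alternative settings. Gng2, a γ subunit of brain and many other tissues, had 9.90, 13.05, 4.30, 6.53 and 7.24 CPM in ATF4 libraries, against 2.41, 2.48, 2.45, 1.19 and 1.74 CPM in GFP libraries. All ATF4 libraries lay above all GFP libraries. The log2 fold change of 1.99 ± 0.35 (adjusted p = 2.94e-04, edgeR) was the largest of the 22 genes in this comparison. Gng2 shares 897 exon bases with Gm48283 on the opposite strand, which was not among the genes counted. Its neighbours 2700060E02Rik, 48734 bases away, and 1810063B07Rik, 98008 bases away, had -0.23 ± 0.11 and 0.10 ± 0.22 with ATF4 (adjusted p = 0.135 and 0.768, edgeR). Gng5, the most abundant γ transcript, had 34.4, 28.9, 44.0, 36.6 and 24.6 CPM in ATF4 libraries, against 20.7, 22.3, 22.2, 26.6 and 20.2 CPM in GFP libraries. Only ATF4 library 5 lay below GFP library 4, and Gng5 rose by 0.59 ± 0.15 on the log2 scale (adjusted p = 0.00636, edgeR).

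Gngt2, known as the γ subunit of cone transducin, had 4.69, 5.57, 6.05, 6.39 and 5.59 CPM in ATF4 libraries, against 2.68, 3.26, 3.37, 5.66 and 0.948 CPM in GFP libraries. GFP library 4 lay within the ATF4 range and GFP library 5 far below the rest. The log2 fold change was 0.81 ± 0.29 (adjusted p = 0.0397, edgeR), and the adjusted p was 0.0526 to 0.0809 when ATF4 library 2, 3, 4 or 5 or GFP library 1, 2, 3 or 5 was left out; without GFP library 5 the log2 fold change was 0.59. In the authors' deposited table Gngt2 did not pass (0.79, adjusted p = 0.0559). With a sex term the Gngt2 call was also lost. Its exons share 234 bases with Abi3 on the opposite strand, at 0.61 ± 0.23 with ATF4 (adjusted p = 0.0468, edgeR), a call lost without most single libraries. Of the neighbours of Gngt2, Zfp652, 2100 bases away, had -0.14 ± 0.18 with ATF4 (adjusted p = 0.578, edgeR). B4galnt2, 20208 bases away on the other side, rose by 8.16 ± 0.42 with ATF4 (adjusted p = 3.51e-11, edgeR). A link between the rises of B4galnt2 and Gngt2 was not tested.

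Of the remaining γ genes, Gng11 averaged 28.9 ± 7.87 CPM with ATF4 and 19.96 ± 7.11 CPM with GFP (SD, n = 5 each) and did not pass (adjusted p = 0.119, edgeR). Gng12 and Gng10 had log2 fold changes of 0.08 ± 0.09 and -0.03 ± 0.20. Gng10 shares 946 exon bases with Gm20503 on the same strand, which was not among the genes counted. GFP library 5, with the lowest endothelial marker sum of its group (471 CPM), also had the lowest Gng11 (9.64 CPM), Gngt2 (0.948 CPM) and Gnb4 (6.32 CPM) of the GFP libraries. ATF4 libraries 1 and 2 had the highest endothelial sums (1545 and 1431 CPM) and the highest Gng2, but ATF4 library 1 had the lowest Gngt2 of its group (4.69 CPM) and ATF4 library 2 the lowest Gng11 (19.6 CPM) and Gnb4 (8.21 CPM). None of the 12 endothelial markers was at 0 in any group. Leukocyte markers summed to 12.9 to 25.5 CPM with ATF4 and 17.5 to 27.9 CPM with GFP, and Cd3e was at 0 in both. The part of these markers, and of the pericyte, fibroblast and erythroid markers given above, in the changes of Gng2, Gng5 and Gngt2 was not tested.

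**Figure D3:**
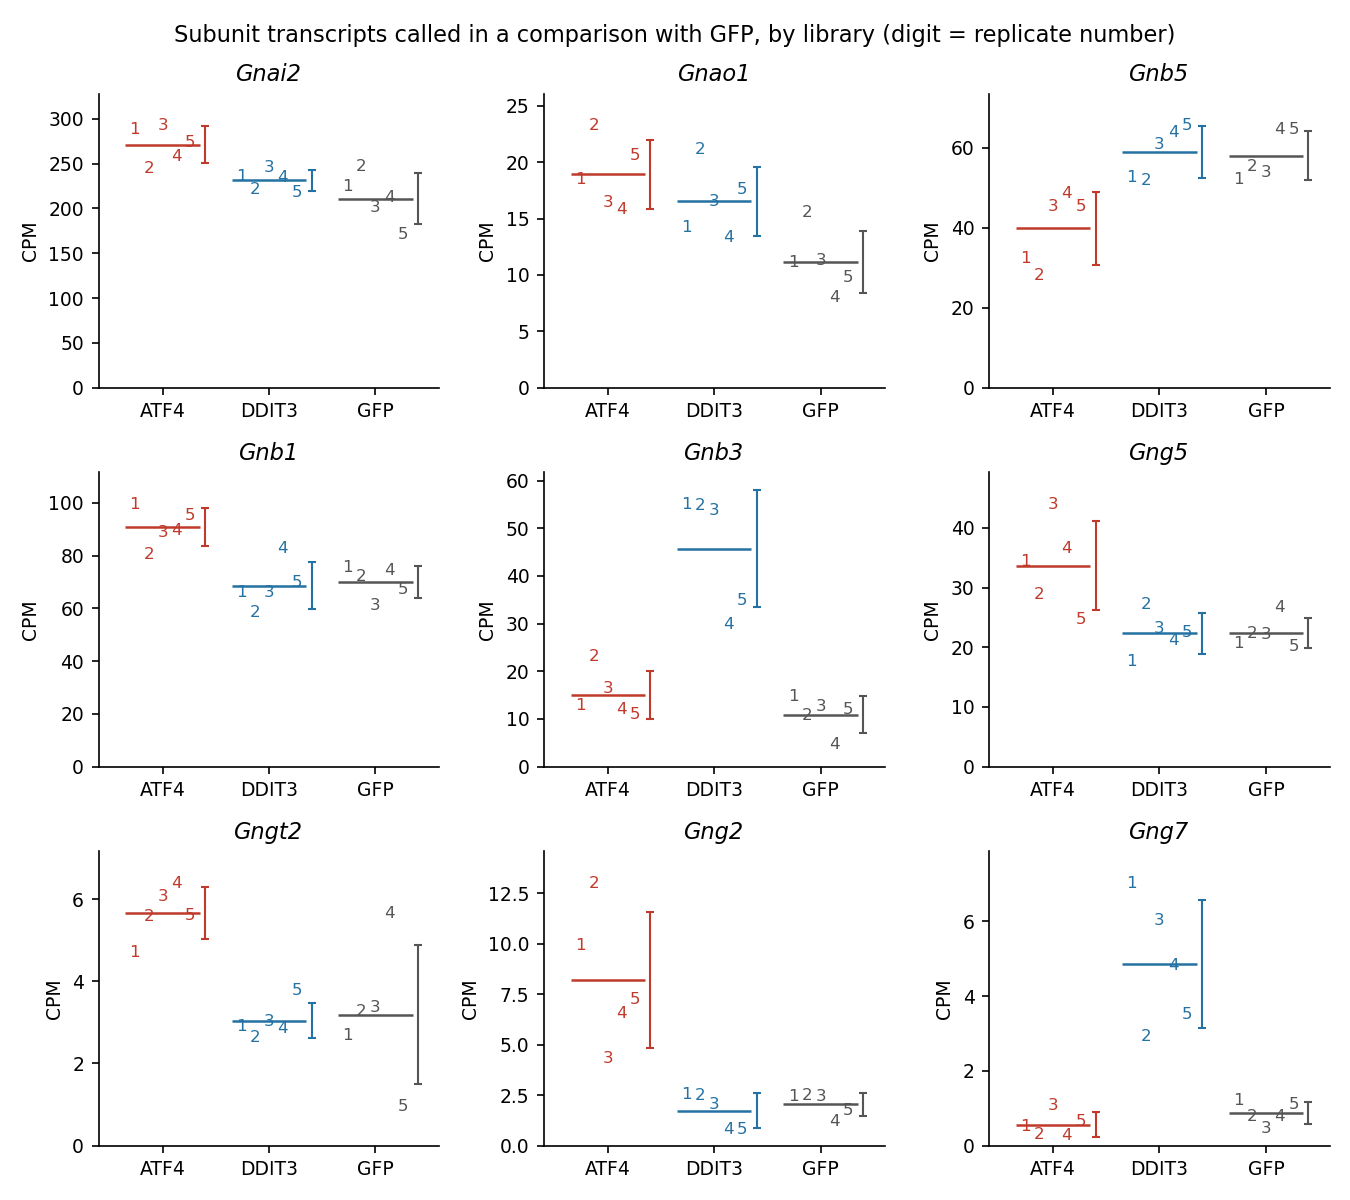
CPM of the 9 subunit genes called in ATF4 or DDIT3 relative to GFP, by library, with each digit standing for a library's replicate number, each line for the group mean and each bar for the SD. Gnb3 and Gng7 are high in the DDIT3 libraries, and Gng2 is high in the ATF4 libraries.

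DDIT3 was compared with the same 5 GFP libraries that served for ATF4. Of all genes tested 0.863% were called in edgeR's quasi-likelihood test with Benjamini-Hochberg adjustment, and 2 of the 22 subunit genes (9.09%) were called, Gnb3 and Gng7, both higher. Of all genes tested 0.525% were called higher and 0.339% lower. The median log2 fold change of the 22 was -0.01, beside 0.00 for all genes tested, and the median absolute log2 fold change was 0.13 for both. The groups did not overlap for 3 of the 22, Gnal, Gnb3 and Gng7, beside 2.86% of all genes tested. The authors' deposited table called the same 2 genes, with log2 fold changes of 2.06 for Gnb3 and 2.48 for Gng7.

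Gnb3 encodes the β subunit of cone transducin and is also expressed outside the retina. It had 55.1, 54.8, 53.8, 29.9 and 34.9 CPM in DDIT3 libraries, against 14.8, 10.7, 12.6, 4.61 and 12.01 CPM in GFP libraries. The lowest DDIT3 library thus held more than the highest GFP library, and Gnb3 rose 4.19-fold (log2 fold change 2.07 ± 0.27, adjusted p = 8.40e-04, edgeR). In ATF4 libraries it had 12.9, 23.2, 16.5, 11.9 and 10.9 CPM, which overlapped with GFP (0.47 ± 0.28, adjusted p = 0.211). The gene lies at chr6:124834240-124840275 on the minus strand of mm10. Its neighbours Usp5, 4755 bases away, and Leprel2, 813 bases away, had log2 fold changes of 0.08 ± 0.12 (adjusted p = 0.916) and -0.31 ± 0.25 (adjusted p = 0.776) with DDIT3.

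Gng7, a γ subunit best known from the striatum, where it assembles with the α subunit encoded by Gnal, lies at chr10:80948624-81014945 on the minus strand. It had 7.02, 2.91, 6.03, 4.81 and 3.50 CPM in DDIT3 libraries, against 1.21, 0.782, 0.460, 0.790 and 1.11 CPM in GFP libraries. All DDIT3 libraries lay above all GFP libraries, and Gng7 rose 5.51-fold (log2 fold change 2.46 ± 0.35, adjusted p = 0.00122, edgeR). ATF4 libraries held 0.521, 0.293, 1.08, 0.284 and 0.635 CPM, within or below the GFP range (-0.60 ± 0.44, adjusted p = 0.318). Of its neighbours, Gadd45b, 16419 bases away, had a log2 fold change of -0.65 ± 0.37 (adjusted p = 0.621) and Slc39a3, 13592 bases away, one of 0.08 ± 0.10 (adjusted p = 0.876) with DDIT3.

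Of 6 tested atrial markers 1 rose and none fell with DDIT3 relative to GFP, and 1 rose and 2 fell with ATF4 relative to GFP. Kcnj3, an atrial marker, had a log2 fold change of -0.57 ± 0.17 with DDIT3 (adjusted p = 0.178, edgeR) and fell with ATF4. The sums thus do not stand for a rise of every atrial marker. The sum of all 8 was 521 to 1484 CPM with DDIT3, 615 to 1166 CPM with ATF4 and 185 to 529 CPM with GFP, and no atrial marker was at 0 in any group. The atrial sums were 1258, 1484, 521, 643 and 875 CPM in DDIT3 libraries 1 to 5, and 400, 529, 471, 185 and 225 CPM in GFP libraries 1 to 5. DDIT3 libraries 1 and 2, with the highest sums, had 55.1 and 54.8 CPM of Gnb3, and 7.02 and 2.91 CPM of Gng7. DDIT3 library 3, with the lowest sum of its group, had 53.8 CPM of Gnb3 and 6.03 CPM of Gng7. GFP library 4, with the lowest sum of all, had 4.61 CPM of Gnb3 and 0.790 CPM of Gng7. The ATF4 libraries had neither gene called. The part of these markers in the rises of Gnb3 and Gng7 was not tested. None of the 12 endothelial markers was called in DDIT3 relative to GFP.

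Promoter sequence is shown for the γ genes with the largest fold changes, 2 RefSeq starts of Gng7 and 1 of Gng2 (build GRCm38.p6, minus strand, from 250 bases before to 50 bases after the start). Capitals mark CCAAT or GGGCGG on either strand, the letters of the CCAAT box and the GC box.
Gng7, upstream start, chr10:81014876-81015175: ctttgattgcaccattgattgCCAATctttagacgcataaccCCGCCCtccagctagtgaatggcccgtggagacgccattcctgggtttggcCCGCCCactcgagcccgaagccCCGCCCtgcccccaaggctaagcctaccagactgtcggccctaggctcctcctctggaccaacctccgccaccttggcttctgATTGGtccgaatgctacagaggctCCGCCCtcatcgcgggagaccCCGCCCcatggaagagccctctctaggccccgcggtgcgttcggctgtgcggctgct
Gng7, second start, chr10:81001316-81001615: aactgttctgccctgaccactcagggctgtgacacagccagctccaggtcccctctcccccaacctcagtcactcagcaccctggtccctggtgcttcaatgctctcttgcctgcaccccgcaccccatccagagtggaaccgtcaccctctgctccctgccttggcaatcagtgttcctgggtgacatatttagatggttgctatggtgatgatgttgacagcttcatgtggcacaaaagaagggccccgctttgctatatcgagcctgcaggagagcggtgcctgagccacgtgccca
Gng2, chr14:19976644-19976943: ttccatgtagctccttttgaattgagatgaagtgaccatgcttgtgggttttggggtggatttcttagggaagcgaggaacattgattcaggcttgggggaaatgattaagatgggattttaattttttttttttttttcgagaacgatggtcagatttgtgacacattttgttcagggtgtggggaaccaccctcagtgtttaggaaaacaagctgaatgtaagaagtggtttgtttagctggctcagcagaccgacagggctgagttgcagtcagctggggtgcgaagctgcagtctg
The upstream start of Gng7 held 2 CCAAT and 5 GGGCGG matches in 63.7% G and C, whereas the second start and Gng2 held neither, at 58.0% and 44.7% G and C. No match of one motif overlapped with a match of the other.

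The table held 30 promoters for 23 of the 31 genes, and their median G and C content was 64.0%, beside 52.7% for all 32851 promoters. Among the genes without a promoter were Gnai2, Gnb3 and Gngt2, each called in a comparison with GFP. GGGCGG was in 17 of the 30, beside 35.7% of all promoters, and CCAAT in 8 of the 30, beside 37.4%. Some windows of Gnas overlap. Counted by gene, GGGCGG was in 15 of the 23, beside 38.2% of all genes, and CCAAT in 7 of the 23, beside 41.1%. The letters TGATGNAA, the composite element of C/EBP and ATF proteins, were found in 1, that of Gna14, beside 3.97% of all promoters. TGACGTCA, the cAMP response element, and TTGCNNAA, a C/EBP site, were in none of the 30, beside 1.79% and 10.8%. Both strands were searched, and these matches describe letters in these windows only.

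None of the remaining subunit genes was called with DDIT3 in edgeR without the block, and 4 of them had log2 fold changes beyond the range of the other 16. Gnao1 had 14.2, 21.1, 16.5, 13.3 and 17.6 CPM in DDIT3 libraries, against 11.1, 15.5, 11.3, 8.03 and 9.80 CPM in GFP libraries. The groups overlapped, at 0.56 ± 0.18 (adjusted p = 0.198, edgeR). With the replicate number as a block, which matches libraries by number only, the log2 fold change was 0.57 ± 0.12 (adjusted p = 0.0169, edgeR). That block called 2.73% of all genes. Gnal had 8.72, 9.29, 8.69, 8.72 and 10.1 CPM in DDIT3 libraries, against 7.24, 6.13, 6.74, 7.51 and 7.90 CPM in GFP libraries. Every DDIT3 library was higher, but the log2 fold change of 0.36 ± 0.13 did not pass (adjusted p = 0.308); Gnal shares 852 exon bases with Mppe1. Gng10 averaged 12.05 ± 2.63 CPM with DDIT3 and 8.81 ± 1.26 CPM with GFP (adjusted p = 0.448), and Gnb4 6.94 ± 2.29 CPM and 10.2 ± 2.59 CPM in the same order (adjusted p = 0.552; SD, n = 5 each). The other 16 genes had log2 fold changes between -0.23 (Gng2) and 0.13 (Gnai2).

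ATF4 was set against DDIT3 directly, which tests whether the vectors differed from each other. Across all genes tested 33.8% were called in edgeR's quasi-likelihood test with Benjamini-Hochberg adjustment, beside 10 of the 22 subunit genes (45.5%). Of these, Gnai3, Gnb1, Gnb4, Gng2, Gng5 and Gngt2 were higher with ATF4 (6 of 22, beside 17.8% of all genes), and Gna12, Gnb3, Gnb5 and Gng7 were lower (4 of 22, beside 16.0%). The median log2 fold change was 0.10, beside 0.00 for all genes, and the median absolute log2 fold change was 0.44, beside 0.31. The groups did not overlap for 7 of the 22, beside 22.6% of all genes tested: Gnai3, Gng2 and Gngt2 were higher and Gnas, Gnb3, Gnb5 and Gng7 lower in every ATF4 library.

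By class, 2 of 10 tested α, 4 of 5 β and 4 of 7 γ genes were called, beside 33.8% of all genes tested; the difference between classes was not tested. Gng7 had the largest difference, at 0.562 ± 0.324 CPM with ATF4 and 4.86 ± 1.71 CPM with DDIT3 (SD, n = 5 each), 8.37-fold lower with ATF4 (log2 fold change -3.07 ± 0.37, adjusted p = 4.88e-06, edgeR). Gnb3 averaged 15.1 ± 4.99 CPM with ATF4 and 45.7 ± 12.3 CPM with DDIT3 (-1.60 ± 0.26, adjusted p = 1.63e-04). Gng2 averaged 8.20 ± 3.36 CPM with ATF4 and 1.74 ± 0.880 CPM with DDIT3 (2.22 ± 0.35, adjusted p = 1.04e-04). In all 3 genes no ATF4 library overlapped with a DDIT3 library.

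Gnb5 averaged 39.9 ± 9.09 CPM with ATF4 and 58.9 ± 6.45 CPM with DDIT3 (-0.56 ± 0.14, adjusted p = 0.00509, edgeR), and Gng5 33.7 ± 7.42 CPM with ATF4 and 22.3 ± 3.44 CPM with DDIT3 (0.59 ± 0.15, adjusted p = 0.00553). Gnb1 had a log2 fold change of 0.40 ± 0.10 (adjusted p = 0.00570) and Gngt2 one of 0.89 ± 0.29 (adjusted p = 0.0233). These 4 genes and Gng2 were thus called both against GFP and against DDIT3. Gnai2 and Gnao1, called in ATF4 relative to GFP, were not called in ATF4 relative to DDIT3: the 95% intervals of their log2 fold changes ran from 0.02 to 0.45 and from -0.18 to 0.57.

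A further 3 genes were called between the vectors without being called for either vector relative to GFP. Gnai3 had 31.0, 31.7, 27.2, 32.4 and 33.5 CPM in ATF4 libraries, against 24.7, 16.4, 22.2, 23.9 and 16.8 CPM in DDIT3 libraries. Every ATF4 library was higher (0.58 ± 0.15, adjusted p = 0.00514, edgeR). Gnb4 had 16.0, 8.21, 8.61, 20.9 and 14.6 CPM in ATF4 libraries, against 6.29, 4.85, 8.93, 9.76 and 4.85 CPM in DDIT3 libraries. These groups overlapped (0.97 ± 0.28, adjusted p = 0.0111). Gna12 averaged 77.8 ± 28.6 CPM with ATF4 and 114 ± 21.7 CPM with DDIT3, and its fall of 0.55 ± 0.20 on the log2 scale passed narrowly (adjusted p = 0.0431). Its adjusted p was 0.0508 to 0.109 without ATF4 library 3, 4 or 5, DDIT3 library 2, 4 or 5, or GFP library 1, 2 or 4, left out in turn.

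With the replicate number as a block, which matches libraries by number only, 3 more genes passed, 13 of 22 in all, beside 44.3% of all genes tested. Gnai2 then had an adjusted p of 0.0410, beside 0.0796 without the block. Gng10 was at -0.49 ± 0.16 (adjusted p = 0.0190), beside an adjusted p of 0.0678 without it. Gng11 was at 0.68 ± 0.19 (adjusted p = 0.0102), beside 0.05035 without it. Leaving out single libraries also moved these genes past the threshold: Gnai2 without ATF4 library 2 (adjusted p = 0.0497), Gng10 without ATF4 library 3 or 4 or DDIT3 library 2 (0.0272 to 0.0400) and Gng11 without ATF4 library 2, DDIT3 library 4 or GFP library 4 or 5 (0.0216 to 0.0444). Of the 12 endothelial markers 11 were higher in ATF4 than in DDIT3, and their part in the rises of Gng2, Gngt2 and Gnb4 was not tested.

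The makeup of each class was described as each gene's share of the summed TPM of its class. Among α subunits Gnas took 46.9 ± 1.87% with ATF4, 50.1 ± 0.663% with DDIT3 and 52.1 ± 0.694% with GFP, and Gnai2 took 28.7 ± 1.68%, 23.5 ± 1.77% and 21.7 ± 1.84% in the same order (SD, n = 5 each). Gnb2 was the largest β share in each group, at 52.1 ± 2.90% with ATF4, 44.2 ± 1.79% with DDIT3 and 50.7 ± 2.40% with GFP. Gnb3 took 6.26 ± 2.21% of the β transcripts with ATF4, 17.3 ± 4.79% with DDIT3 and 4.74 ± 1.72% with GFP. Gnb5 took 15.7 ± 3.23% with ATF4, 21.4 ± 2.40% with DDIT3 and 24.0 ± 2.76% with GFP. Gng5 held 48.4 ± 5.74% of the γ transcripts with ATF4, 44.8 ± 7.24% with DDIT3 and 45.9 ± 4.14% with GFP, so that its rise in CPM with ATF4 did not move its share beyond the spread. Gng2 and Gng7, with the largest fold changes, stayed small parts of the γ class: Gng2 took 1.75 ± 0.935% with ATF4 and 0.602 ± 0.191% with GFP, and Gng7 took 1.49 ± 0.546% with DDIT3 and 0.282 ± 0.128% with GFP. Shares depend on the division by gene length: without it Gng12 held the largest γ share, 41.2% with ATF4, 46.3% with DDIT3 and 49.9% with GFP.

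**Figure D4:**
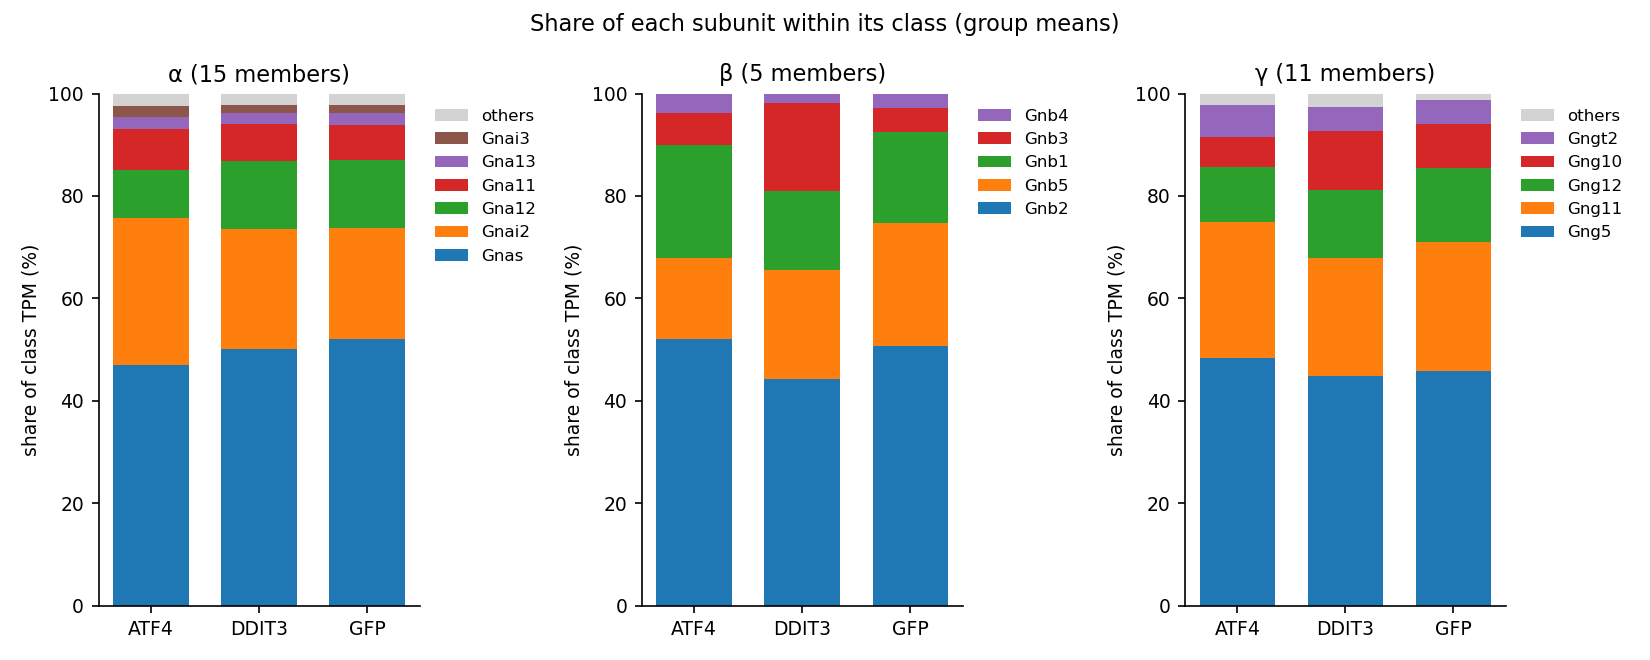
Share in percent of each subunit in the summed TPM of its class in ATF4, DDIT3 and GFP hearts, as the mean of 5 libraries. Gnas and Gnai2 make up most of the α transcripts in every group, and the Gnb3 segment of the β class is widest with DDIT3.

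The genes around the subunits were taken from 7 lists of 126 genes, of which 106 were tested, chosen with earlier results of these data known. With ATF4, 23 rose and 26 fell relative to GFP (46.2%, beside 32.2% of all genes tested), at a median log2 fold change of -0.00. Among 20 tested receptors 5 rose and 6 fell (55.0%, beside the same 32.2% of all genes). Adra1a, an α1-adrenergic receptor that signals through Gq, fell by 2.07 ± 0.29 (adjusted p = 2.83e-05, edgeR). Adra1a averaged 4.30 ± 1.87 CPM with ATF4 and 18.1 ± 5.99 CPM with GFP. Adra1b fell by 0.75 ± 0.13 (adjusted p = 3.10e-04, edgeR). Calcrl, the receptor of adrenomedullin and a gene of endothelial cells, rose by 1.05 ± 0.20 (adjusted p = 4.72e-04). Of 11 tested RGS proteins, which speed GTP hydrolysis by α subunits, and their partners, 5 rose and 2 fell (63.6%). The median log2 fold change of the 11 was 0.66. Beside Rgs7bp, Rgs12 rose by 1.02 ± 0.13 (adjusted p = 6.38e-06), with 63.4 ± 11.6 CPM in ATF4 libraries and 31.2 ± 3.34 CPM in GFP libraries (SD, n = 5 each).

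Of 10 tested chaperones and non-receptor activators 2 rose and 1 fell with ATF4 (30.0%, beside 32.2% of all genes tested). Ric8 (Ric8a), the chaperone that folds new Gi, Gq and related α subunits, rose by 1.19 ± 0.14 on the log2 scale (adjusted p = 5.01e-06, edgeR; 51.1 ± 6.78 CPM with ATF4 and 22.3 ± 3.59 CPM with GFP). Its relative Ric8b, which serves Gs and the product of Gnal, was looked up after the values had been seen and had -0.28 ± 0.12 (adjusted p = 0.0812). Gpsm1, which binds GDP-bound Gi subunits, fell by 0.68 ± 0.10 (adjusted p = 4.77e-05), and Nucb2 rose by 1.07 ± 0.34 (adjusted p = 0.0226, or 0.0544 to 0.0617 without ATF4 library 1 or 2 or GFP library 1, 3 or 5). Of 12 tested enzymes of lipid modification, which anchor subunits in the membrane, 1 rose and 1 fell (16.7%, beside 32.2% of all genes tested). Nmt1, a myristoyltransferase, rose by 0.34 ± 0.10 (adjusted p = 0.0146, edgeR). Fnta, a subunit shared by the farnesyl and geranylgeranyl transferases that modify γ subunits, fell by 0.31 ± 0.10 (adjusted p = 0.0173, edgeR).

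Of 9 receptor kinases and arrestins 1 rose and 1 fell with ATF4 (22.2%, beside 32.2% of all genes tested). Grk5, a kinase that phosphorylates active receptors, rose by 2.16 ± 0.18 (adjusted p = 2.97e-08, edgeR; 23.9 ± 3.87 CPM with ATF4 and 5.33 ± 1.26 CPM with GFP), and Adrbk1 (Grk2), the kinase recruited by β and γ subunits, fell by 0.46 ± 0.15 (adjusted p = 0.0273, or 0.0523 to 0.0763 without ATF4 library 3, 4 or 5 or GFP library 5). Among 20 tested effectors 5 rose and 6 fell (55.0%, beside 32.2% of all genes tested). Kcnj3, a subunit of the atrial potassium channel opened by β and γ subunits, fell by 1.66 ± 0.18 (adjusted p = 1.79e-06). Adcy5, the adenylyl cyclase stimulated by Gs and inhibited by Gi in cardiomyocytes, fell by 1.11 ± 0.14 (adjusted p = 6.41e-06; 48.5 ± 3.12 CPM with ATF4 and 105 ± 13.1 CPM with GFP), whereas Adcy4 rose by 0.99 ± 0.17 (adjusted p = 2.86e-04).

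Downstream in cAMP and calcium signalling, 4 of 24 tested genes rose and 9 fell with ATF4 (54.2%, beside 32.2% of all genes tested). The median log2 fold change of the 24 was -0.19. Prkar2b, a regulatory subunit of protein kinase A, averaged 14.6 ± 3.64 CPM with ATF4 and 0.355 ± 0.305 CPM with GFP (5.27 ± 0.40, adjusted p = 1.06e-08, edgeR; SD, n = 5 each). Prkaca, its catalytic subunit, fell by 0.53 ± 0.11 (adjusted p = 0.00159; 382 ± 74.0 CPM with ATF4 and 552 ± 20.8 CPM with GFP). Prkcd, a protein kinase C isoform, rose by 1.62 ± 0.26 (adjusted p = 1.16e-04).

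With DDIT3, 1 of the 106 pathway genes was called (0.943%, beside 0.863% of all genes tested). With the replicate number as a block 8 were called, beside 2.73% of all genes. DESeq2 called 5, beside 1.57% of all genes with an adjusted p. The gene called in the fit reported was Arrb1, β-arrestin, which ends receptor signalling and carries receptors into the cell. Arrb1 averaged 24.4 ± 5.61 CPM with DDIT3 and 11.7 ± 1.74 CPM with GFP (SD, n = 5 each; log2 fold change 1.06 ± 0.17, adjusted p = 0.00308, edgeR). Between the vectors, 28 pathway genes were higher and 26 lower with ATF4 than with DDIT3 (50.9%, beside 33.8% of all genes tested).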

How the data were processed

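RNA of 15 libraries was analysed, grouped by sample title. The authors deposited 1 table of whole-number counts for each gene and library, with a column of other unit, the gene length. The submitters' processing notes name STAR, featureCounts, DESeq2, DESeq and mm10; their version numbers are not given in the sources used here. Per the labels' extract protocols, the same for all 15 libraries, polyA RNA was made into libraries with SMART Seq v4 and Nextera XT kits, which do not mark strand; the sample descriptions name SMART-Seq2, or SMART-Seq3 for GFP library 5. The authors also deposited tables of both comparisons with GFP which, per the file headers, hold a mean signal (normalised count), the log2 fold change and its SE, a test score and p-values; they were used only where named.

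Counts were tested with edgeR 4.0.16 (limma 3.58.1, R 4.3.3; TMM factors, filterByExpr, robust quasi-likelihood fit of all 15 libraries, residual degrees of freedom 12, biological coefficient of variation 19.6%), two-sided, with Benjamini-Hochberg adjustment over 11814 genes and a threshold of 0.05. CPM use TMM factors, TPM were computed from counts and the deposited gene length, fold changes are log2 with SE, and values are given ± SD. Depth was 6217744 to 8317249 counts per library. The exact binomial interval of Gnat2 covers counting error only. The SE of an edgeR log2 fold change is its absolute value divided by the square root of the quasi-likelihood F statistic. That statistic includes the spread among libraries. The intervals use this SE and a t distribution with 12 degrees of freedom, so they need not match the p-values exactly. Libraries of a group differed by more than sampling noise (chi-square per degree of freedom 8.60 to 50.4). The test recovered known changes when tested on simulated data.

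Alternatives were other size factors, no filter on low counts, DESeq2 1.42.0, only the groups compared, a replicate block, a sex term (sex from Y-linked genes) and leaving out libraries. Same-numbered libraries deviated together from their group means in all 5 pairs for DDIT3 and GFP (correlations 0.205 to 0.511) and in all 5 for ATF4 and DDIT3 (0.135 to 0.497). The highest value for ATF4 and DDIT3 was that of the libraries numbered 2, both female. Correlations between differently numbered libraries were not computed, so whether the numbers pair libraries was not tested. The labels do not explain the numbers. The members, lists and tests were chosen with earlier results of these data known. The text names every subunit gene, and up to 3 called genes of lowest p per pathway list, other choices being stated. Positions are from GENCODE M21 and sequences from RefSeq. Of the 31 subunit genes 13 share exon bases with another annotated gene, and not every such overlap is named. A few marker genes are not reported here.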

Additional observations from a re-analysis of the deposited data

Results flagged for a closer look

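Of 66 groups of 5 libraries checked (22 subunit genes in 3 vector groups), 3 held a library far from the other 4, and chance gives about 1 in 20. Gna11 was at 123 CPM in ATF4 library 1, above the 109 to 112 CPM of the other ATF4 libraries. Gnas was at 1458 CPM in DDIT3 library 5, above the 1341 to 1357 CPM of the other DDIT3 libraries. Gng12 was at 49.8 CPM in GFP library 3, below the 57.0 to 58.5 CPM of the other GFP libraries.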

How the results depend on the processing

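Over 22 alternative settings 1891 values were recomputed, of which 1780 kept their direction and side of the threshold, 33 lost a call, 37 gained one and 41 turned round, none of these called in the fit reported. Subunit genes called in ATF4 relative to GFP numbered 7, against 11 with DESeq2 (29.3% of all genes with an adjusted p called), 11 with the replicate block (43.1% of all genes) and 6 to 9 without single libraries; for DDIT3 relative to GFP they numbered 2 in every setting but the block, which gave 3 (2.73% of all genes), and for ATF4 relative to DDIT3 10, against 9 to 12 without single libraries and 13 with the block (44.3% of all genes). ATF4 and GFP libraries of 1 number deviated together in 4 of 5 pairs (correlations 0.0783 to 0.386). For ATF4 relative to GFP the replicate block, which matches libraries by number only, added Gnai1 (-0.45, adjusted p = 0.0232) and Gnai3 (0.40, adjusted p = 0.0291). It also added Gnas (-0.19, adjusted p = 0.0441) and Gng11 (0.54, adjusted p = 0.0344), all in edgeR. Pathway genes called in DDIT3 relative to GFP numbered 1 in the fit reported (0.863% of all genes called). DESeq2 called 5 (1.57% of all genes with an adjusted p), the replicate block 8 (2.73%) and a sex term 2 (0.813%). Without single libraries the pathway genes called numbered 1 to 2. There were 2 without DDIT3 library 4 or 5 or GFP library 5 (0.672%, 0.730% and 0.661% of all genes).

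Log2 fold changes near 0 changed sign, and the cause was not tested. Without single libraries they ran, for ATF4 relative to GFP, from -0.01 to 0.17 for Gna13 and -0.15 to 0.06 for Gng10. For DDIT3 relative to GFP they ran from -0.05 to 0.11 for Gna12, -0.06 to 0.05 for Gna13, -0.11 to 0.02 for Gnb1, -0.06 to 0.02 for Gnb2, -0.02 to 0.06 for Gnb5, -0.09 to 0.06 for Gng5, -0.31 to 0.02 for Gng11 and -0.30 to 0.23 for Gngt2. For ATF4 relative to DDIT3 they ran from -0.00 to 0.17 for Gna13 and -0.05 to 0.17 for Gnaq. Leaving out ATF4 and DDIT3 libraries 2 together, chosen after seeing the data, gave -0.01 for Gna13 and 0.04 for Gng10 (ATF4 relative to GFP), -0.01 for Gna12, 0.02 for Gnb1 and 0.02 for Gnb2 (DDIT3 relative to GFP) and -0.05 for Gnaq (ATF4 relative to DDIT3). For DDIT3 relative to GFP the replicate block gave 0.01 for Gna13, and the sex term 0.03 for Gna13, -0.01 for Gnb5 and 0.01 for Gng5. Depth limits the 9 untested genes, at no more than 10 counts a library.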
